A study of Arabidopsis thaliana with 12 samples.

Results

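The genes described here are the 60 with the brightest probes of their own in *Arabidopsis thaliana* plants kept in growth light. They were chosen among the 692 probes, of 3439 on the array, that the platform annotation assigns to exactly 1 gene. These 692 probes were ranked by the plain mean of their deposited intensities over the 6 control samples, 10 loci fixed by name were left out, and the top 60 of the remaining 682 were taken. The 10 loci left out all lay above the dimmest member and included PSBW, LHB1B2 and PSAN of the photosynthetic apparatus, ranked 4, 5 and 8 of 692, so the 60 are not the strict top of the list. The control values chose the members and are given as a description. In whole-tissue RNA, fewer cells of a type and less RNA per cell cannot be told apart.

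All 12 samples were total RNA of wild-type plants of the ecotype Columbia 0. The 6 control samples came from plants grown at 80 µE, and the 6 recovery samples from plants given 1000 µE during 1 h before going back to 80 µE. The labels give the time back at 80 µE as 2 h in the titles and descriptions and as 1 h in the source names. The titles give 0 h for the controls, so time of day may differ between the groups and cannot be told apart from light. No label states an age, an organ, or whether plants were pooled or sampled separately, so p-values speak only of the scatter among these samples, and that scatter may be technical.

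In a leaf in moderate light, a few transcripts of photosynthesis, such as those of the light-harvesting antenna, the photosystems and carbon fixation, usually make up a large share of the nuclear messages. Most other nuclear genes that serve the chloroplast, including those for plastid gene expression, protein folding and small biosynthetic pathways, are expressed at far lower levels. After a burst of excess light, plants repair photosystem II, adjust antenna size and return slowly to the growth-light state.

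The name "most abundant transcripts" could be checked only in part. An intensity depends on the probe as well as on the RNA, probe lengths and labelling were not given, and the order of probes is therefore an order of signals, not of transcript numbers. By signal, the members ran from rank 8 to rank 472 of all 3439 probes, so the dimmest member lay at the limit of the brightest 13.7%. The mean control intensity of the members ran from 1.01 to 59.8 with a median of 1.54 on a scale that ends at 100, against a median of 0.244 for all probes. The 3 brightest members held 57.4% of the summed control signal of the 60, only 15 members had a mean above 2, and the remaining 45 lay between 1.01 and 2. Members are called "the brightest genes" below for that reason.

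**Figure D1:**
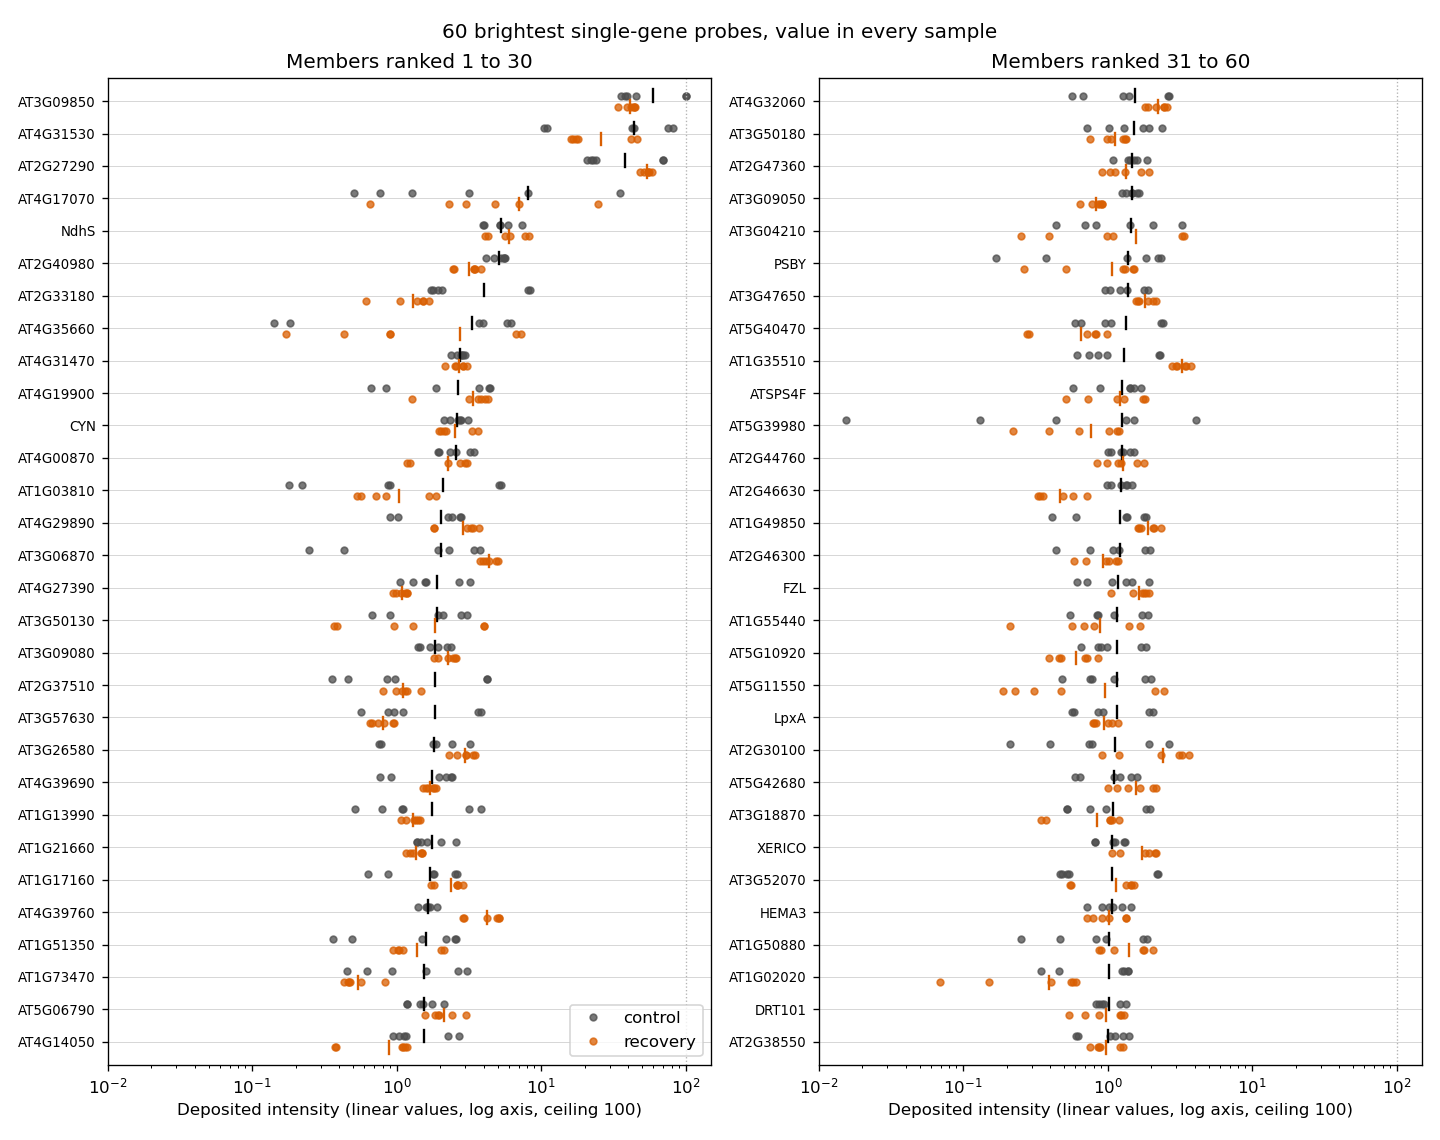
Deposited intensity (log axis) of the 60 brightest single-gene probes in every sample, in order of their control mean; grey points are the 6 control and orange points the 6 recovery samples, and vertical ticks mark the group means. A group of 3 genes stands at means of 38.3 to 59.8 in control, whereas most members lie between 1 and 5 and many have control values spread over a wide range.

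Within each group, samples 1 and 2 were alike, as were 3 and 4 and also 5 and 6, a pairing for which the labels give no reason. Among the members, the brighter sample of a pair was a median of 1.10 times the dimmer one in control and 1.08 times in recovery. Between pairs, the highest pair mean was a median of 2.95 times the lowest in control and 1.79 times in recovery, and 43 of 60 members differed by more than 2 times between control pairs. The coefficient of variation had a median of 48.6% over the control samples and 28.1% over the recovery samples, and it was larger in control for 39 of 60 members. The 60 genes that the same ranking takes from the recovery samples had medians of 48.3% in control and 29.0% in recovery. Over all 692 single-gene probes the medians were 59.96% and 55.9%.

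The 3 brightest members had high signals in every sample but no common course. AT3G09850, which codes for a G-patch protein of a kind that binds RNA helicases, had control values with a lowest of 35.8, a median of 42.4 and a highest of 100, the ceiling. Its values stood at the ceiling in controls 5 and 6, where differences are compressed, and without these the control mean was 39.7. The recovery samples ran from 33.8 to 44.5 with a median of 42.8 and overlapped with controls 1 to 4. For AT4G31530, a Rossmann-fold protein of the NAD(P)-binding kind, the pair means were 43.1, 78.5 and 10.7 in control and 17.6, 44.3 and 16.5 in recovery. Samples 3 and 4 were the highest in both groups, and the groups overlapped. AT2G27290, for which no role is given here, had control pair means of 69.8, 22.7 and 22.5 against 57.2, 54.7 and 50.3 in recovery. Its 6 recovery values stayed between 48.6 and 58.7, a coefficient of variation of 6.40%, the lowest of all members in recovery. Controls 1 and 2 lay above that range and the other 4 controls below it.

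The members ranked 4 to 12 showed that a bright mean can rest on very different sets of samples. AT4G17070, of the peptidyl-prolyl isomerase family that helps proteins fold, read 34.9 in control 2 and 24.8 in recovery 2. Its lowest values were 0.509 in control 3 and 0.659 in recovery 3, and its medians were 2.24 and 3.89. Sample 2 was thus the highest and sample 3 the lowest in both groups, and the coefficient of variation was 165% in control, the largest of all members. AT2G40980 ran from 4.16 to 5.65 in control and from 2.46 to 3.86 in recovery, with medians of 5.39 and 3.44, and its groups did not overlap. AT2G33180 had control pair means of 1.77, 8.31 and 2.00 and recovery pair means of 1.45, 1.60 and 0.833, so that controls 3 and 4 set its place in the ranking. AT4G35660 was high in controls 1, 2, 5 and 6 (pair means of 5.98 and 3.83) and in recovery 3 and 4 (6.999), and low in controls 3 and 4 (0.163) and in the other recovery pairs (0.90 and 0.302). AT4G31470, of the family of secreted cysteine-rich proteins that includes pathogenesis-related proteins, was the steadiest member in control. It ran from 2.39 to 2.98 in control and from 2.18 to 3.05 in recovery, with medians of 2.82 and 2.73, and the groups overlapped almost entirely.

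**Figure D2:**
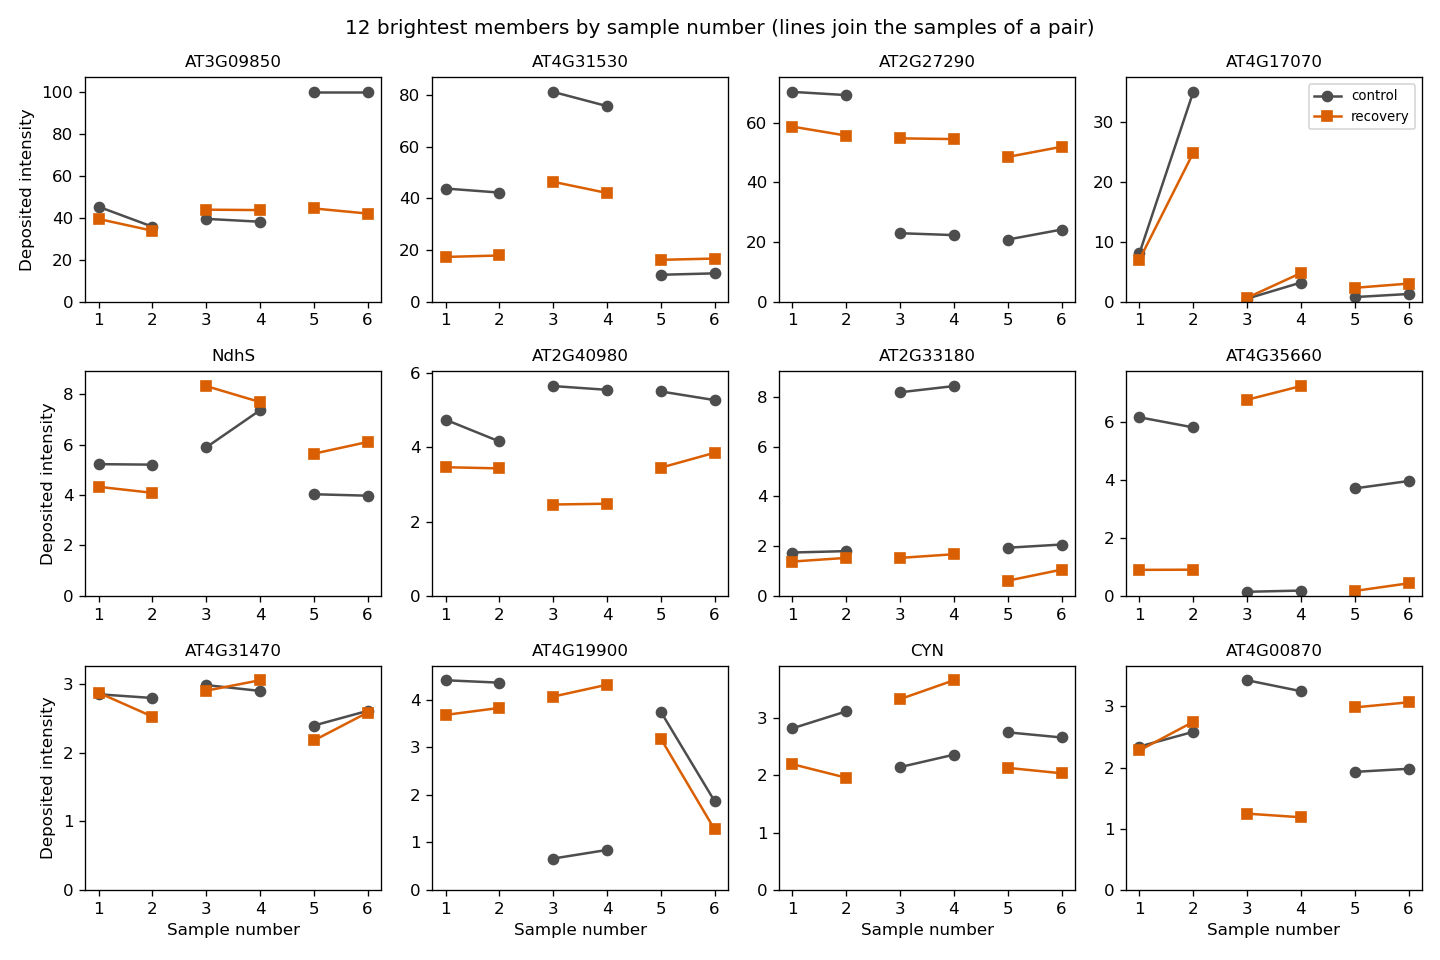
Deposited intensity of the 12 brightest members by sample number, control in grey and recovery in orange; lines join the samples of a pair, and each panel starts at 0. Samples of a pair lie close together in most panels, AT3G09850 reaches the ceiling of 100 in controls 5 and 6, and AT4G35660 is high in controls 1, 2, 5 and 6 and in recovery 3 and 4.

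By function, the brightest genes were mixed. The reference gene table holds a symbol other than the locus for 9 of the 60 (15%) and for 92 of all 692 single-gene probes (13.3%). A role is given here for 34 members, from general knowledge of the annotated loci rather than from the table, and for 26 none is given. Of the 34, 10 serve metabolism, 7 gene expression, 5 the light reactions and plastid structure, 5 protein folding and breakdown, 3 glycosylation and the cell wall, 2 mitochondria and 2 defence. Reference names placed 6 single-gene probes in the light reactions, of which 1, PSBY, was a member and 4 were left out by the rule (PSBW, PSB27, LHB1B2 and PSAN). Not one of these 6 passed the limma comparison of recovery with control (0 at an unadjusted p under 0.05). Over all 3438 features 3.03% passed, and 629 had an unadjusted p under 0.05, so nothing is read from counts this small. They placed 2 probes in carbon fixation, PRK and SBPASE, neither a member. PRK, at a control mean of 2.13 and rank 22 of 692, was left out by the rule. Again none passed limma (1 at an unadjusted p under 0.05).

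The members of the light reactions and plastid structure had log2 differences, recovery minus control after quantile normalisation, of -0.44 to 0.38, and none passed limma, which called 3.03% of all features. NdhS, the subunit of the chloroplast NADH dehydrogenase-like complex at which ferredoxin delivers electrons, ran from 3.97 to 7.36 in control (median 5.21) and from 4.09 to 8.32 in recovery (median 5.87). It was in the top 5 of the ranking in both groups, the groups overlapped, and its log2 difference was 0.18 with a standard error of 0.20 (-0.38 with median centring). PSBY, a small subunit of photosystem II, had pair means of 1.61, 2.28 and 0.272 in control and of 1.30, 1.51 and 0.391 in recovery. Samples 5 and 6 were the lowest in both groups. AT3G47650, the chaperone that holds the large Rubisco subunit during assembly, had medians of 1.29 in control and 1.77 in recovery and was higher in recovery for each of the 6 sample numbers on the normalised scale, although its log2 difference of 0.34, which was -0.12 with median centring, was not called. FZL, a dynamin-like GTPase that shapes thylakoids, had medians of 1.21 and 1.76, and AT2G38550, of a family of plastid envelope proteins that export fatty acids, had medians of 1.08 and 0.886. The ranges of both genes overlapped between groups.

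Among the 10 members of metabolism, chosen like all members for high control values, 2 fell and none rose, where limma called 1.83% of all features lower and 1.19% higher. Both calls depended on the setting, as AT5G10920 passed in 9 and AT1G02020 in 7 of 21 alternatives. CYN, the cyanase that detoxifies cyanate, ran from 2.14 to 3.11 in control and from 1.95 to 3.65 in recovery, with medians of 2.70 and 2.16. ATSPS4F, a sucrose-phosphate synthase, had nearly the same means, 1.26 ± 0.431 in control and 1.21 ± 0.524 in recovery (SD, n = 6 per group), and its samples 3 and 4 were low in both groups. AT1G17160, the ribokinase that recycles ribose, had pair means of 1.80, 2.58 and 0.753 in control and 2.75, 1.78 and 2.63 in recovery. AT4G29890, a choline monooxygenase-like protein, had medians of 2.33 in control and 3.19 in recovery with overlapping ranges. HEMA3, a glutamyl-tRNA reductase of the entry step of tetrapyrrole synthesis, had medians of 1.05 and 0.968. LpxA, an acyltransferase known from lipid A synthesis in bacteria, had medians of 0.895 and 0.916, and DRT101, of the phosphoglucosamine mutase kind, had medians of 0.935 and 1.04. None of these 7 genes passed limma over all 12 samples, whereas without samples 3 and 4 of both groups 3 of them did. These were CYN at -0.52 (adjusted p = 0.0358), AT1G17160 at 1.00 (adjusted p = 0.0416) and AT4G29890 at 1.02 (adjusted p = 0.0388). That fit, like the one over all samples, took the samples of a pair as independent, so its p-values understate the scatter between pairs. The 2 that fell, AT5G10920 and AT1G02020, are described with the other called members.

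None of the 7 members of gene expression passed limma, which called 3.03% of all features. Of their log2 differences 6 of 7 lay below 0, as did 65% over all members, which high control values chose. Of these 6, that of AT5G39980 was 0.39 on deposited values, and those of AT2G37510 and AT4G00870 were 0.32 and 0.27 without samples 3 and 4. AT4G00870, a bHLH transcription factor of jasmonate signalling, had pair means of 2.47, 3.34 and 1.96 in control and 2.52, 1.22 and 3.03 in recovery, so the pair that was highest in control was lowest in recovery. AT2G37510, an RNA-binding protein with an RRM domain, read 4.22 as a mean of controls 3 and 4, 0.918 in controls 1 and 2 and 0.410 in controls 5 and 6, while its recovery values ran from 0.80 to 1.47. The members included 3 pentatricopeptide repeat genes, whose proteins bind organelle transcripts. AT4G14050 had control pair means of 1.14, 2.49 and 0.990 and recovery pair means of 1.14, 0.378 and 1.13, and it was called with median centring (-1.40, adjusted p = 0.0487). AT2G30100 had control pair means of 0.762, 0.304 and 2.29 and recovery pair means of 1.06, 3.21 and 3.01. AT5G39980 ranged from 0.0155 in control 4 to 4.09 in control 2, the widest control range of all members as a ratio of highest to lowest, and from 0.223 to 1.20 in recovery. The mTERF gene AT3G18870, of a family that acts in organelle transcription, had medians of 0.864 in control and 1.04 in recovery but a log2 difference of -0.75 with a standard error of 0.56.

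All 5 members of protein folding and breakdown were also in the top 60 of the recovery samples, and 1 of them, AT4G39760, rose, against 1.19% of all features. XERICO, a RING-type protein known for raising abscisic acid levels, ran from 0.817 to 1.33 in control and from 1.08 to 2.15 in recovery. On the normalised scale it was higher in recovery for each of the 6 sample numbers, with a log2 difference of 0.57 (standard error 0.20) that was not called. Without samples 3 and 4, with paired samples taken as independent, it was called at 0.73 (adjusted p = 0.0200). AT1G49850, with a RING domain of ubiquitin ligases, had medians of 1.36 and 1.89 and a log2 difference of 0.71. AT1G21660, with a DnaJ domain of the auxilin kind that uncoats vesicles, had medians of 1.56 and 1.39 on the deposited scale, and on the normalised scale it was lower in recovery for each sample number.

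Of the remaining members with a role, AT4G39690, a subunit of the MICOS complex that shapes mitochondrial cristae, ran from 0.773 to 2.42 in control and from 1.52 to 1.87 in recovery. AT4G32060, the calcium-sensing regulator of the mitochondrial calcium uniporter, had medians of 1.34 and 2.30. Its recovery range of 1.82 to 2.58 lay within its control range of 0.568 to 2.68. Samples 1 and 2 had a mean of 2.65 in control and 1.86 in recovery, and the gene was not called. The glycosyltransferase genes AT4G19900 and AT3G57630 went different ways in samples 3 and 4. AT4G19900 had a control mean of 0.752 and a recovery mean of 4.19 there, and AT3G57630 means of 3.76 and 0.711. AT3G04210, of the TIR-domain class of immune proteins, ran from 0.442 to 3.29 in control and from 0.253 to 3.40 in recovery, and the groups overlapped.

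Among the 26 members without a stated role, AT3G06870 had control pair means of 3.60, 0.340 and 2.12 and recovery pair means of 4.94, 3.86 and 4.26. Its recovery values, 3.79 to 5.002, all lay above its highest control value of 3.78, and its log2 difference of 1.53 (standard error 0.58) was the highest of all members but was not called. Without samples 3 and 4, with paired samples taken as independent, the difference was 0.75 and was called (adjusted p = 0.0376). AT1G03810 and AT1G13990 owed their place to controls 3 and 4, with means of 5.20 and 3.52 there against 0.20 to 1.09 in the other control pairs. AT1G73470 ran from 0.452 to 3.07 in control and from 0.431 to 0.826 in recovery, and AT5G40470 from 0.597 to 2.40 and from 0.276 to 0.992. AT3G50130 and AT3G50180, whose locus numbers are close, had control medians of 2.01 and 1.53 and recovery medians of 1.14 and 1.17. The means of AT3G50130 were nearly the same, 1.91 in control and 1.85 in recovery. Its recovery values ran from 0.371 to 4.06, with a mean of 4.04 in samples 3 and 4. Both genes overlapped between groups and neither was called. AT5G11550 had control pair means of 0.938, 1.91 and 0.629 and recovery pair means of 0.269, 2.29 and 0.335, so samples 3 and 4 were the highest in both groups, and its log2 difference of -1.39 (standard error 0.77) was not called. Without those samples, with paired samples again taken as independent, it was -2.09 and was called (adjusted p = 0.0147). AT3G26580 had medians of 1.83 in control and 3.03 in recovery, and controls 3 and 4, with a mean of 0.767, were the lowest of all its samples.

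AT2G46630 and AT3G09050, also without a stated role, are described with the called members. The remaining members without a stated role overlapped between groups on deposited values and were not called over all 12 samples. Without samples 3 and 4, with paired samples again taken as independent, AT3G52070 was called at 1.05 (adjusted p = 0.00539) and AT2G46300 at -0.78 (adjusted p = 0.0254). AT3G09080 and AT5G06790 varied little, with control ranges of 1.42 to 2.38 and 1.18 to 2.13 and recovery ranges of 1.82 to 2.60 and 1.57 to 3.02. AT2G44760 ran from 0.9996 to 1.53 in control and from 0.849 to 1.78 in recovery, and AT2G47360 from 1.09 to 1.88 and from 0.909 to 1.93. Wider control ranges were found for AT1G51350 (0.364 to 2.60), AT2G46300 (0.438 to 1.96), AT3G52070 (0.471 to 2.25), AT1G50880 (0.254 to 1.87), AT5G42680 (0.596 to 1.61) and AT1G55440 (0.5498 to 1.91). Recovery ranges of these 6 were 0.944 to 2.12, 0.584 to 1.19, 0.549 to 1.53, 0.868 to 2.06, 1.01 to 2.17 and 0.210 to 1.69 in the same order.

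The recovery samples, which the rule did not use, gave partly the same list. The same ranking of the 682 genes by the recovery mean placed 37 of the 60 members (61.7%) in its own top 60, and 55 of the 60 in its top 120. Of the 20 brightest members 16 were in the recovery top 60, of the next 20 there were 14, and of the last 20 there were 7. Within single samples, 41 to 45 members were in the sample's own top 60 in control, and 31 to 42 in recovery, with 41 and 42 in recovery 3 and 4 and 31 to 35 in the other 4. The members held 7.32% to 8.66% of the summed signal of all probes in the control samples and 6.09% to 8.24% in recovery. Members just inside the threshold, ranked 56 to 60, were HEMA3, AT1G50880, AT1G02020, DRT101 and AT2G38550, with control means from 1.08 down to 1.01. Just outside it, AT5G19750, the calmodulin-like gene CML30, AT5G63290, AT2G19280 and AT4G27700 had means from 1.01 down to 0.981. The choice also depended on the pairs of controls, since 23 members were in the top 60 of all 3 control pairs, 22 of 2 and 15 of only 1.

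A further 23 genes entered the recovery top 60 from control ranks as low as 177. The brightest of these was AT5G58330, the chloroplast NADP-malate dehydrogenase, whose mean was 0.450 in control and 2.64 in recovery. In the other direction, AT1G02020 went from rank 58 in control to rank 275 in recovery, AT2G46630 from rank 43 to 225 and AT1G73470 from rank 28 to 189.

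**Figure D3:**
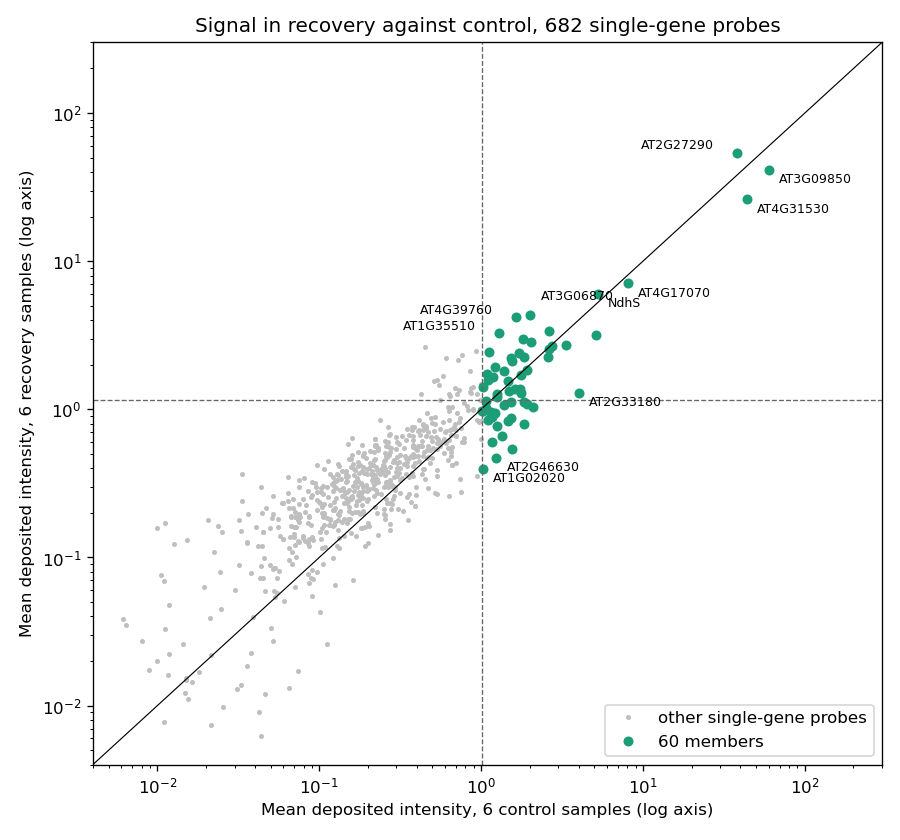
Mean deposited intensity in 6 recovery samples against that in 6 control samples (both log axes) for 682 single-gene probes, with the 60 members in green; dashed lines mark the means of the dimmest gene in each group's top 60, the solid line marks equal means, and 18 probes with a mean under 0.004 lie outside the plot. The 37 members above the horizontal line are bright in both groups, and most of the dimmer grey probes lie above the line of equal means.

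On the deposited scale 22 of 60 members (36.7%) had a higher mean in recovery, against 493 of the 622 other genes (79.3%). High control values chose the members and favour lower recovery means among them, so nothing is read from this contrast. The sample medians of all probes were 0.426 to 0.458 in recovery 1, 2, 5 and 6 and 0.196 to 0.284 in the other 8 samples, and their part in this contrast was not tested. Recovery was therefore compared with control after quantile normalisation, with values under the 5th percentile of positive values set to it and log2 taken. No member had a value at that floor. The test was limma over 3438 features, two-sided, with Benjamini-Hochberg adjustment, and a feature with an adjusted p under 0.05 was called.

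Limma called 6 of the 60 members (10%), 2 higher and 4 lower in recovery, against 3.03% of all features, 1.19% being higher and 1.83% lower. Nothing is read from this count, because high control values chose the members and favour differences below 0, and because the 10 loci left out include genes that were called, AT2G36480 and AT1G62250 among them. On deposited values the groups did not overlap for 7 members, AT2G40980, AT2G33180, AT3G06870, AT4G39760, AT3G09050, AT1G35510 and AT2G46630, against 4.27% of all probes. On the normalised log2 scale they did not overlap for 9 members, against 4.42% of all features.

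The 2 members that rose were AT4G39760 and AT1G35510. AT4G39760, of the F-box and kelch repeat family of ubiquitin ligase subunits, ran from 1.41 to 1.91 in control (median 1.64) and from 2.88 to 5.11 in recovery (median 4.60). Every recovery value lay above every control value, with recovery 3 and 4 the lowest of their group. The log2 difference was 1.26 with a standard error of 0.23 (limma, adjusted p = 0.0153), a 2.40-fold higher level, and the call was lost with median centring (adjusted p = 0.121). AT1G35510, of the O-fucosyltransferase family, ran from 0.619 to 2.31 in control (median 0.929) and from 2.79 to 3.79 in recovery (median 3.24). The groups did not overlap, and controls 1 and 2 were the highest of theirs. Its log2 difference was 1.35 with a standard error of 0.30 (limma, adjusted p = 0.0341), and the call was lost without samples 3 and 4 of both groups (adjusted p = 0.0636) and with median centring (adjusted p = 0.169).

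The 4 members that fell were AT2G46630, AT3G09050, AT5G10920 and AT1G02020. AT2G46630 ran from 0.994 to 1.47 in control (median 1.29) and from 0.328 to 0.725 in recovery (median 0.423), without overlap. Its log2 difference was -1.74 with a standard error of 0.21 (limma, adjusted p = 0.0030), and it was -1.56, -1.59 and -2.06 in the 3 pairs. AT3G09050 ran from 1.26 to 1.66 in control and from 0.649 to 0.920 in recovery, again without overlap, and fell by 1.00 on the log2 scale (limma, adjusted p = 0.0103). AT5G10920, the argininosuccinate lyase that releases arginine in its synthesis, ran from 0.652 to 1.85 in control and from 0.395 to 0.857 in recovery. It was lower in recovery for each sample number although the groups overlapped, and it fell by 1.21 (limma, adjusted p = 0.0298). That call was lost on deposited values (adjusted p = 0.127) and with cyclic loess (adjusted p = 0.0569). AT1G02020, of the nitroreductase family, had pair means of 1.35, 1.32 and 0.405 in control and 0.485, 0.110 and 0.590 in recovery. Its log2 difference of -1.78 (limma, adjusted p = 0.0298) was -2.01, -2.98 and -0.37 in the pairs, and blocking on the replicate number ended the call (adjusted p = 0.0732). So did the use of deposited values (adjusted p = 0.183), cyclic loess (adjusted p = 0.0584) and leaving out samples 3 and 4 (adjusted p = 0.0882). When pairs entered limma as a random block, it called none of the 60 members and 3 of all features (314 at an unadjusted p under 0.05), and the adjusted p of the 6 members was 0.0865 to 0.232.

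**Figure D4:**
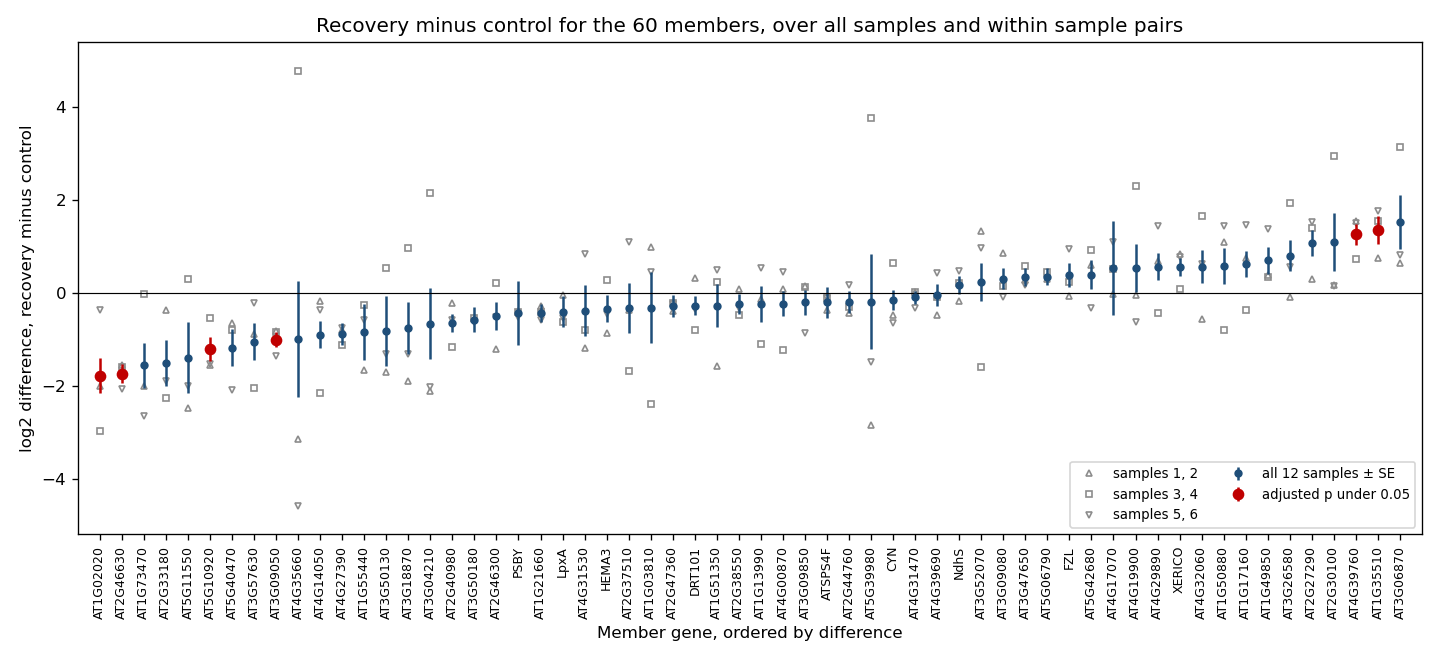
Log2 difference, recovery minus control after quantile normalisation, for each of the 60 members; filled points are the limma estimates over all 12 samples with standard error bars, red where the adjusted p was under 0.05, and open symbols are the differences within the 3 pairs of samples. The filled points run from -1.78 to 1.53. For 16 of the 60 members the open square of samples 3 and 4 lies on the other side of 0 from both triangles.

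The other 54 members were not called, and several of them had differences as large as those that were. AT2G27290 had a log2 difference of 1.08 with a standard error of 0.29 (limma, adjusted p = 0.0646). It was higher in recovery for each sample number on the normalised scale only. On deposited values samples 1 and 2 were lower in recovery, with pair means of 69.8 in control and 57.2 in recovery. AT4G27390 had one of -0.89 (adjusted p = 0.0674) and was called once replicate number was blocked (adjusted p = 0.0388). AT2G40980, whose groups did not overlap, had one of -0.66 (adjusted p = 0.103), which was -1.26 and called with median centring (adjusted p = 0.0358). AT1G73470 had one of -1.56, which was -0.03 in samples 3 and 4 and was called at -2.14 without them (adjusted p = 0.0316). AT2G33180 had one of -1.51. At the other end, AT4G35660 had a mean difference of -0.98 with a standard error of 1.25, made of -3.15, 4.78 and -4.58 in the 3 pairs. Without samples 3 and 4, the pair that went against the others, it was called at -3.64 (adjusted p = 0.0132). That fit took paired samples as independent, so its p-values understate the scatter between pairs. With pairs as a random block over all 12 samples, limma gave AT4G35660 and AT1G73470 adjusted p values of 0.94 and 0.35. Differences of under 0.5 in size were found for 28 members and of over 1 for 14.

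A difference of the same sign in all 3 pairs was found for 27 members (45%), against 33.1% of all features. Nothing is read from this contrast, because the control values that chose the members enter each pair difference. Features at the floor can also have a difference of 0, and no member had a value there. In 16 members samples 3 and 4 went against both other pairs, in 8 samples 1 and 2 did, and in 9 samples 5 and 6 did. These counts by pair were not made over all features. The median difference of the members was -0.23 over all samples, with 39 of 60 below 0, while that of all features was -0.02 with 51.2% below 0. By pair the median of the members was -0.25, -0.06 and -0.27, and that of all features 0, -0.11 and 0.

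That median moved with the samples that chose the genes. The 60 genes chosen in the same way by the recovery mean had a median difference of 0.54, with 17 of 60 below 0. When the 60 were chosen from the 2 controls of 1 pair and the difference was taken over the other 8 samples, the median was 0.36 for controls 1 and 2, -0.06 for controls 3 and 4, and 0.01 for controls 5 and 6. These lists shared 42, 42 and 44 genes with the members. A shift of the brightest genes as a group is not read from these values.

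**Figure D5:**
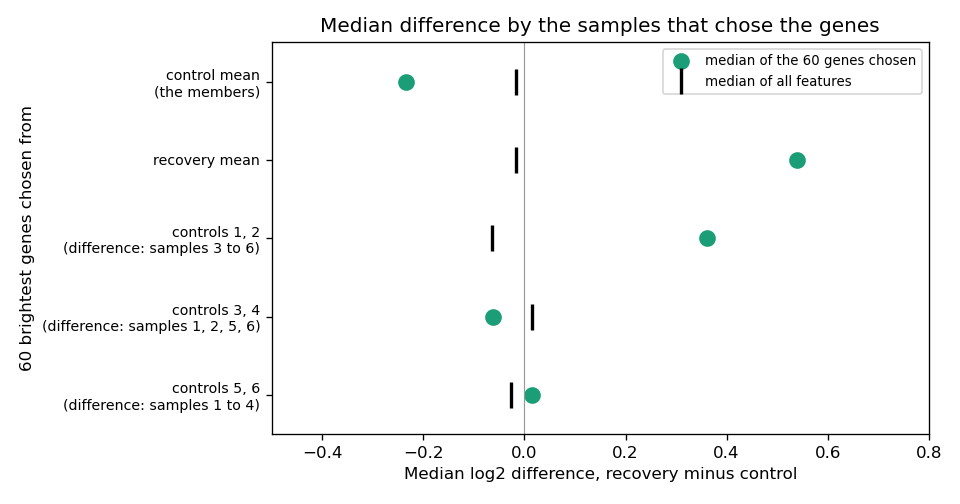
Median log2 difference, recovery minus control, of 60 genes chosen as the brightest by 5 sets of samples (green points), with the median of all 3438 features over the same samples (black bars). The members, chosen by the control mean, lie at -0.23, the genes chosen by the recovery mean at 0.54, and genes chosen from 1 pair of controls and measured in the other samples between -0.06 and 0.36.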

How the data were processed

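The deposited table holds, per the labels, 1 column for each of the 12 samples, which were grouped and numbered by their titles. The authors deposited linear intensities that end at 0 and 100. How they corrected background and normalised is unknown: array type, scanner, such steps and the genome build were not given in the sources used here. Column medians ran from 0.196 to 0.458, 171 to 383 probes per sample were at 0 and at most 7 at the ceiling. The number of arrays limits the precision. Of 3439 probes, 692 had 1 gene, 870 had several and 1877 remain unnamed here. The 692 included 690 listed in the reference table (TAIR10.1), used for names only. The 1 gene with 2 probes was averaged, giving 3438 features.

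Values were quantile-normalised, floored at 0.0298 and compared with limma 3.58.1 (R 4.3.3) over all 12 samples without covariates. The fit was tested on simulated data with independent samples, which cannot show how it behaves with samples that come in pairs. Figures and summaries used Python 3.11.15. Alternatives changed the normalisation, the floor, a filter on dim features, the replicate or pair terms and the samples used. Members and lists were chosen with earlier results of these data known. Genes were named by a rule: the 12 brightest, up to 6 of each functional class, every called member, the 8 lowest and 8 highest differences, members at the ceiling, gene families, ranks 56 to 65, and the 6 widest and 6 narrowest recovery spreads, with other members given by their range.

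Deviations from the group mean correlated at 0.110 to 0.462 for a control and a recovery sample that share a number, at 0.0814 to 0.168 for the other number of a pair and at -0.229 to 0.00796 across pairs. All 12 samples had their own number as closest partner. The limma fit over all 12 samples nevertheless had no term for the number, and blocking on it was run as an alternative. The blocked value is given where it changes a call.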

Additional observations from a re-analysis of the deposited data

Results flagged for a closer look

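Dixon's criterion at the 95% level was applied to the 6 log2 values of each member in each group, 120 sets in all, and 2 sets exceeded it. The criterion divides the distance between an extreme value and the next one by the whole range, and chance alone exceeds it in about 1 of 20 sets of independent values, which these paired samples are not. Recovery 6 stood below the other recovery samples for the glycosyltransferase gene AT4G19900, at a log2 intensity of 0.22 against 1.77 for the next, a ratio of 0.851. Recovery 5 stood below the others for AT5G10920, at -1.62 against -0.94, a ratio of 0.673.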

How the results depend on the processing

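Limma called 104 features (41 higher, 63 lower), 65 with median centring (14 higher, 51 lower), 60 with cyclic loess, 3 with the pair as a random block, 0 with averaged pairs (203 at an unadjusted p under 0.05) and 362 without samples 3 and 4, of which 15 were members, 11 of them not called over all samples. The fit without samples 3 and 4 took the samples of a pair as independent, so its p-values understate the scatter between pairs. On deposited values limma called 79 higher and 30 lower. The median of all features moved to 0.43 on deposited values and to -0.13 with median centring. Leaving out 1 sample gave 42 to 91 calls, over 1.5 times fewer than the full count without control 3 or 4 or recovery 1, 2, 5 or 6, and 3 to 6 called members; calls were lost without control 3, 4, 5 or 6 or recovery 1, 2, 5 or 6 for AT1G35510, without control 1, 2, 5 or 6 or recovery 1, 3, 5 or 6 for AT5G10920, and without control 1 to 4 or recovery 1, 2, 3 or 5 for AT1G02020, and gained without control 1 for AT2G27290. With only features above the median mean, AT2G27290 and AT4G27390 were called as well. Blocking on replicate number, the replicate block, left 106 features called, 58 of them among the 104.

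The median difference of the members was -0.0845 on deposited values and -0.64 with median centring, and 0.54, 0.36, -0.0631 and 0.0146 for genes chosen from other samples, a choice made after the data were seen. Between 36 and 39 members were in the recovery top 60 under every alternative run.

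The sign of a difference that was not called changed as follows. With median centring it was -0.00804 for FZL (AT1G03160), -0.25 for AT3G09080, -0.12 for AT3G47650, -0.21 for AT3G52070, -0.0451 for AT4G17070, -0.38 for NdhS (AT4G23890), -0.0939 for AT5G06790 and -0.0016 for AT5G42680. On deposited values it was 0.0539 for AT1G51350, 0.00206 for AT2G38550, 0.0802 for AT4G39690 and 0.39 for AT5G39980, which had 0.10 with cyclic loess. Without samples 3 and 4 it was 0.66 for AT1G03810, 0.19 for AT1G13990, 0.32 for AT2G37510, 0.27 for AT4G00870 and -0.32 for AT4G19900. Leaving out 1 sample in turn gave -0.70 to 0.11 for AT1G03810, -0.43 to 0.0336 for AT1G13990, -0.59 to 0.000414 for AT2G37510, -0.00711 to 1.18 for AT4G17070, -0.20 to 0.0481 for AT4G39690 and -0.93 to 0.36 for AT5G39980. The cause was not tested.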
